A study of Mus musculus with 2 samples.

Results

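The genes described here are the WNT ligands, their receptors and the proteins that antagonise or transmit the signal. They were chosen by a rule on symbols, with earlier results of these data known. It took every protein-coding gene named as a Wnt, Fzd, Sfrp, Dkk or Rspo family member or as Lgr4, Lgr5 or Lgr6. It also took 16 genes given by name. This rule found 60 genes among the 43346 Ensembl genes of the tables, of which 21474 are protein-coding. By role they were 19 Wnt ligands, 10 Frizzled receptors, 5 coreceptors and other receptors, 4 R-spondins, 3 R-spondin receptors, 12 secreted antagonists and 7 intracellular or nuclear proteins. The tissue was limb of B6NCrl mouse embryos at embryonic day 14.5, untreated and with no allele named in the labels. Total RNA longer than 200 nt was sequenced from 10 ng of starting RNA in 2 libraries, biological replicates 1 and 2, with spike-in RNAs added. Each library came from the 4 limbs of a pup, so forelimb and hindlimb, and all cell types of the limb, were mixed.

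WNT proteins are secreted lipid-modified ligands. They bind Frizzled receptors together with Lrp5 or Lrp6, which stops the destruction of beta-catenin and lets it act with Lef1 and Tcf factors on target genes. Other ligands, with Wnt5a the best known, act largely without beta-catenin through Ror2, Ryk and Frizzled receptors and set cell polarity and movement. R-spondins, bound by Lgr receptors, keep Frizzled and Lrp proteins at the cell surface. Sfrp, Frzb and Wif1 proteins bind the ligands, Dkk1 and Sost bind Lrp5 and Lrp6, and Notum removes the lipid from the ligands. In the limb bud these signals shape the apical ectodermal ridge, the dorsal and ventral sides, outgrowth and later the joints.

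Both libraries belong to 1 group, so no condition was compared, and levels are described. They are given as TPM, a transcript abundance corrected for length and scaled to a fixed total, and a pair of values stands for replicates 1 and 2, with a mean ± SD over n = 2 where one is printed. The libraries held 34193161 and 32879425 expected counts (estimated reads), of which spike-ins took 5.29% and 5.20%, and the 60 genes took 0.364% and 0.395% of the counts of Ensembl genes. Markers fitted the labelled tissue: 9 of 9 limb mesenchyme markers and 9 of 9 epidermal markers reached 1 TPM in both libraries, and 0 of 6 markers of liver, lung and heart did. By the labels the sexes were pooled, the donor and the pup and pregnancy numbers are shared, and only the collection day differs. In the data, 4 Y-linked genes were at 0 in replicate 2, among them Ddx3y, with 29.56 TPM in replicate 1. The X-linked Xist had 0.03 TPM in replicate 1 against 78.99 TPM in replicate 2. Neither library thus showed the mix of sexes that a pooled label implies, and the opposite patterns mean different embryos. Sex, collection day and library cannot be told apart in any difference between the libraries, and the SD treats them as separate embryos. In bulk tissue, fewer cells of a type and less RNA per cell cannot be told apart.

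Of the 60 genes, 52 reached 1 TPM in both libraries, against 61.4% of all protein-coding genes. Wnt8a and Wnt8b had 0 counts in both libraries, which allows up to 3 counts in each. The counts by role were 14 of 19 Wnt ligands, 10 of 10 Frizzled receptors, 5 of 5 coreceptors and other receptors, 3 of 4 R-spondins, 3 of 3 R-spondin receptors, 10 of 12 secreted antagonists and 7 of 7 intracellular or nuclear proteins. Summed over the 60 genes the level was 1680 TPM in replicate 1 and, in replicate 2, 1873 TPM. The intracellular and nuclear proteins held 664.7 and 708.5 TPM, the secreted antagonists 459.1 and 534.4 TPM, the Wnt ligands 254.2 and 286 TPM and the Frizzled receptors 156.5 and 167.3 TPM. The coreceptors and other receptors held 81.56 and 103.7 TPM, the R-spondin receptors 35.09 and 43.33 TPM and the R-spondins 28.4 and 30.16 TPM.

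**Figure D1:**
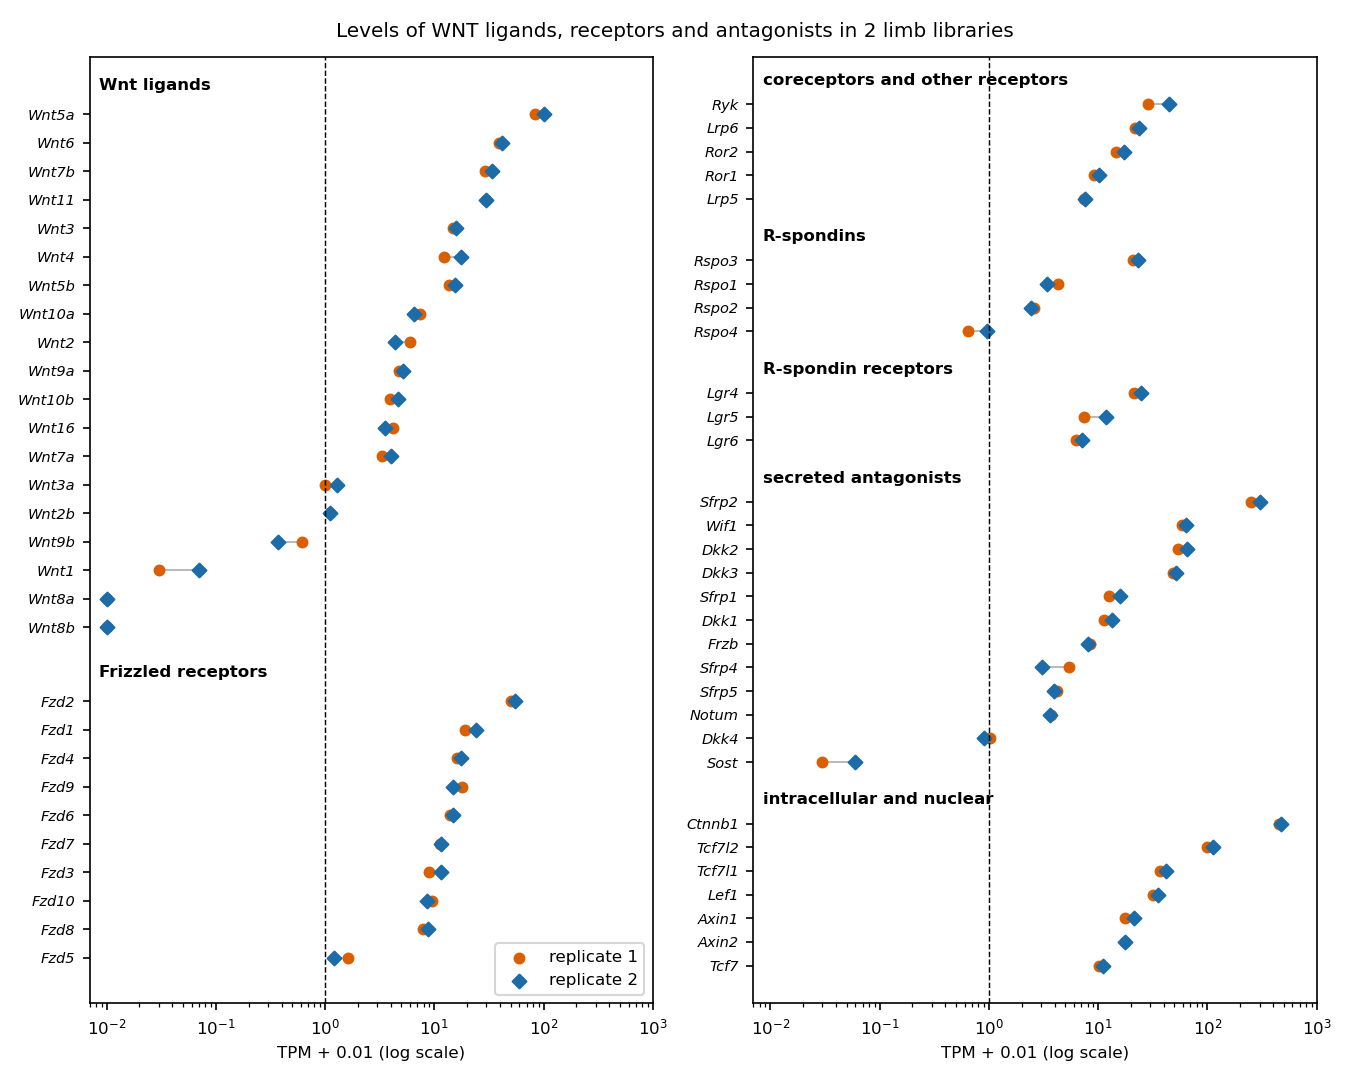
Level of each of the 60 genes in replicate 1 (circles) and replicate 2 (diamonds), in TPM plus 0.01 on a log axis, ordered by mean within each role; the dashed line marks 1 TPM. Wnt5a led the ligands, Fzd2 the Frizzled receptors, Sfrp2 the antagonists and Ctnnb1 the intracellular proteins.

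Wnt5a was the most abundant ligand. Wnt5a, at chr14:28504750-28527448 of GRCm38 on the plus strand, acts mainly without beta-catenin and is needed for outgrowth of the limb and digits in mice. It had 83.21 TPM in replicate 1 and 100.93 TPM in replicate 2, with a mean of 92.1 ± 12.5 TPM (SD, n = 2), and held 32.7% and 35.3% of the summed TPM of the 19 ligands. Its lower value exceeded both values of every other ligand. Wnt6, a ligand of surface ectoderm, followed with 39.33 and 41.67 TPM. Wnt7b, an epithelial ligand, had 29.24 and 33.41 TPM. Wnt11, which like Wnt5a acts mostly without beta-catenin, had 29.68 and 29.85 TPM, inside the range of Wnt7b, so the order of these neighbours was not resolved. In transcripts typed protein-coding alone, Wnt11 had 12.25 and 14.32 TPM, below both values of Wnt7b.

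A middle group of 3 ligands lay between 12.31 and 17.64 TPM. Wnt3, the ligand needed in mouse limb ectoderm for the apical ridge, had 14.71 and 15.87 TPM. Wnt4, expressed in joints and kidney, had 12.31 and 17.64 TPM. Wnt5b, the closest relative of Wnt5a, had 13.55 and 15.56 TPM. The values of Wnt3 and Wnt5b all fell inside the range of Wnt4, so these 3 could not be ranked.

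A further 6 ligands, with means from 3.65 to 6.93 TPM, were lower but detected in both libraries. Wnt10a, mutated in human ectodermal dysplasia, had 7.32 and 6.54 TPM, and its relative Wnt10b had 3.90 and 4.62 TPM. Wnt2 had 6 and 4.33 TPM, a range that held both values of Wnt9a, a joint ligand, at 4.78 and 5.21 TPM. In transcripts typed protein-coding alone, Wnt2 had 2.85 and 2.58 TPM, below both values of Wnt9a. Wnt16, another ligand of joints, had 4.14 and 3.56 TPM, overlapping with Wnt10b. Wnt7a, which in mouse limb ectoderm specifies the dorsal side, had 3.31 and 3.99 TPM, and so could not be ranked against Wnt16. Near the threshold of 1 TPM, Wnt3a had 0.98 and 1.28 TPM and Wnt2b 1.11 and 1.09 TPM. Wnt9b, known for inducing kidney tubules, had 0.61 and 0.36 TPM, and Wnt1, a ligand of the brain, rested on 1 and 3 counts.

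Ligand genes that lie next to each other differed in level. Among the 60 genes, 4 pairs lay within 100 kb, and all were pairs of Wnt genes. Wnt6 and Wnt10a lie on chromosome 1 in the same direction, 6.19 kb apart, and the log2 ratio of Wnt6 over Wnt10a was 2.41 in replicate 1 and 2.65 in replicate 2. Wnt9a and Wnt3a on chromosome 11, 16.2 kb apart and on opposite strands, had a log2 ratio of Wnt9a over Wnt3a of 2.18 and 1.94. Wnt3 and Wnt9b, also on chromosome 11 and 24.3 kb apart, had a log2 ratio of Wnt3 over Wnt9b of 4.38 and 5.12. For Wnt10b and Wnt1 on chromosome 15, 11.7 kb apart, no ratio is given, because Wnt1 had 1 and 3 counts, beside 185 and 209 counts of Wnt10b. In each pair the same gene was higher in both libraries.

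All 10 Frizzled receptors were detected, within a narrower range than the ligands. Fzd2, whose human counterpart is mutated in a short-limb syndrome, led with 50.39 and 54.29 TPM, or 32.2% and 32.5% of the summed Frizzled TPM. Its close relatives Fzd1 and Fzd7 had 18.91 and 24.02 TPM and 11.36 and 11.44 TPM. Fzd4, which also binds Norrin, had 16.29 and 17.67 TPM, inside the range of Fzd9 at 17.76 and 14.87 TPM. The planar polarity receptor Fzd6 had 13.85 and 14.83 TPM, and Fzd3, with the same role, had 8.96 and 11.46 TPM, a range that held both values of Fzd7. Fzd10 had 9.58 and 8.65 TPM and Fzd8 7.80 and 8.84 TPM, with overlapping ranges. Fzd5 was the lowest, at 1.60 and 1.20 TPM.

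Among the coreceptors and other receptors, Ryk had the highest mean and the widest spread. Ryk, a receptor with a Wif domain and an inactive kinase domain, had 28.75 TPM in replicate 1 and 44.89 TPM in replicate 2, or 36.8 ± 11.4 TPM. Lrp6, the coreceptor of beta-catenin signalling, had 21.59 and 23.87 TPM, and its relative Lrp5, known for its effect on bone mass, had 7.35 and 7.51 TPM. Ror2, a Wnt5a receptor mutated in human brachydactyly, had 14.66 and 17.31 TPM, and its relative Ror1 had 9.21 and 10.12 TPM. The lower value of Ryk still exceeded both values of Lrp6, and no neighbouring ranges overlapped in this group.

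Of the R-spondins, Rspo3 held most of the signal. It had 20.91 and 23.41 TPM, or 73.6% and 77.6% of the summed R-spondin TPM. Rspo1 had 4.26 and 3.38 TPM. Rspo2, without which mouse limbs do not form fully, had 2.60 and 2.41 TPM, and Rspo4, known for its role in human nails, had 0.63 and 0.96 TPM. Of their receptors, the broadly expressed Lgr4 had 21.41 and 24.49 TPM, the stem cell marker Lgr5 7.38 and 11.71 TPM, and Lgr6, a marker of hair follicle cells, 6.30 and 7.13 TPM. The order of these 3 receptors was the same in both libraries.

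Secreted antagonists together had a higher summed level than the ligands, and Sfrp2 held most of it. Sfrp2, at chr3:83766321-83774316 on the plus strand, encodes a secreted Frizzled-like protein that binds Wnts. It had 252.20 TPM in replicate 1 and 305.81 TPM in replicate 2, with a mean of 279 ± 37.9 TPM, above 98.0% of protein-coding genes by mean level and 54.9% and 57.2% of the summed antagonist TPM. Wif1, which binds Wnts outside the cell, had 58.84 and 63.29 TPM. Dkk2 had 53.42 and 65.18 TPM, a range that held both values of Wif1. Dkk3, a divergent Dickkopf, had 48.16 and 51.31 TPM. In both libraries Sfrp2 lay above every ligand, and the other 3 lay above every ligand but Wnt5a.

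The other antagonists were lower. Sfrp1 had 12.56 and 15.80 TPM and Dkk1, the Lrp5 and Lrp6 blocker whose loss alters digits in mice, had 11.32 and 13.39 TPM, and their ranges overlapped. Frzb, known from cartilage, had 8.34 and 8.12 TPM. Sfrp4 had 5.38 and 3.06 TPM, a range that held both values of Sfrp5 at 4.18 and 3.91 TPM, and Notum had 3.66 and 3.58 TPM. Dkk4, a Dickkopf of hair placodes, had 1.01 and 0.89 TPM, and Sost, the antagonist made by osteocytes, rested on 1 and 2 counts.

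Inside the cell, beta-catenin RNA was the most abundant of the 60. Ctnnb1, which also works at cell junctions, had 451.04 and 469.00 TPM. Of the DNA-binding partners of beta-catenin, Tcf7l2 had 99.99 and 112.03 TPM, Tcf7l1, mostly a repressor, 36.80 and 42.09 TPM, Lef1 31.72 and 35.36 TPM and Tcf7 10.16 and 11.01 TPM. This order held in both libraries with no overlap of ranges. Axin2, a target gene and feedback inhibitor, had 17.46 and 17.54 TPM, and Axin1, the scaffold of the complex that destroys beta-catenin, 17.53 and 21.44 TPM, so their ranges overlapped.

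Ratios between related genes were compared within each library, 10 between single genes and 3 between sums. For each of the 10, the 500 genes nearest in level served as the yardstick: the spread is the size of log2 difference between libraries that 95% of those genes did not exceed. A ratio counted as past it when its mean was larger in size and its sign was the same in both libraries. No p was computed, since an exact sign-flip test on 2 libraries cannot go below 0.5. By this measure 9 of the 10 ratios were past the spread. The spread covers differences of a gene between libraries, not differences between genes, so unrelated pairs may pass it as well. The share of such pairs is not given here. Wnt5a exceeded Wnt5b, with a log2 ratio of 2.65 ± 0.06 (SD, n = 2) against a spread of 0.51, and exceeded Wnt11, with 1.62 ± 0.19 against 0.35. Counting only transcripts typed protein-coding, the ratio of Wnt5a over Wnt11 was 2.61.

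Paralogues were unequal in most other pairs. The log2 ratio was 5.06 ± 0.22 for Sfrp2 over Frzb, 1.60 ± 0.08 for Lrp6 over Lrp5 and 0.72 ± 0.07 for Ror2 over Ror1, against spreads of 0.51, 0.66 and 0.57. Lef1 exceeded Tcf7 by 1.65 ± 0.03 and Tcf7l2 exceeded Tcf7l1 by 1.42 ± 0.02, against spreads of 0.53 and 0.35, although in protein-coding transcripts alone Tcf7l2 over Tcf7l1 was 0.62. Rspo3 exceeded Rspo1 by 2.51 ± 0.34 and Lgr4 exceeded Lgr5 by 1.29 ± 0.33, each past its spread of 0.97 and 0.57.

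Axin1 over Axin2 gave 0.15 ± 0.20 against a spread of 0.43, the 1 ratio of single genes not past it. In protein-coding transcripts it was 0.46, past its spread.

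The 3 ratios of sums are given as values only, since the spread of single genes is not that of sums. The 12 antagonists summed to more than the 19 ligands, with a log2 ratio of 0.85 in replicate 1 and 0.90 in replicate 2. This rested on Sfrp2: without it, an alternative added after the values were seen, the antagonists summed to 206.9 and 228.6 TPM against 254.2 and 286 TPM of ligands, and the log2 ratio was -0.30 and -0.32. The sum of Wnt5a, Wnt5b and Wnt11 was 126.4 and 146.3 TPM and that of the other 16 ligands 127.8 and 139.6 TPM, with a log2 ratio of 0.03 ± 0.06. Its sign differed between the libraries, at -0.01 and 0.07, and in protein-coding transcripts the mean was -0.21. Fzd1, Fzd2 and Fzd7 together over the other 7 Frizzled receptors gave 0.09 in replicate 1 and 0.21 in replicate 2.

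**Figure D2:**
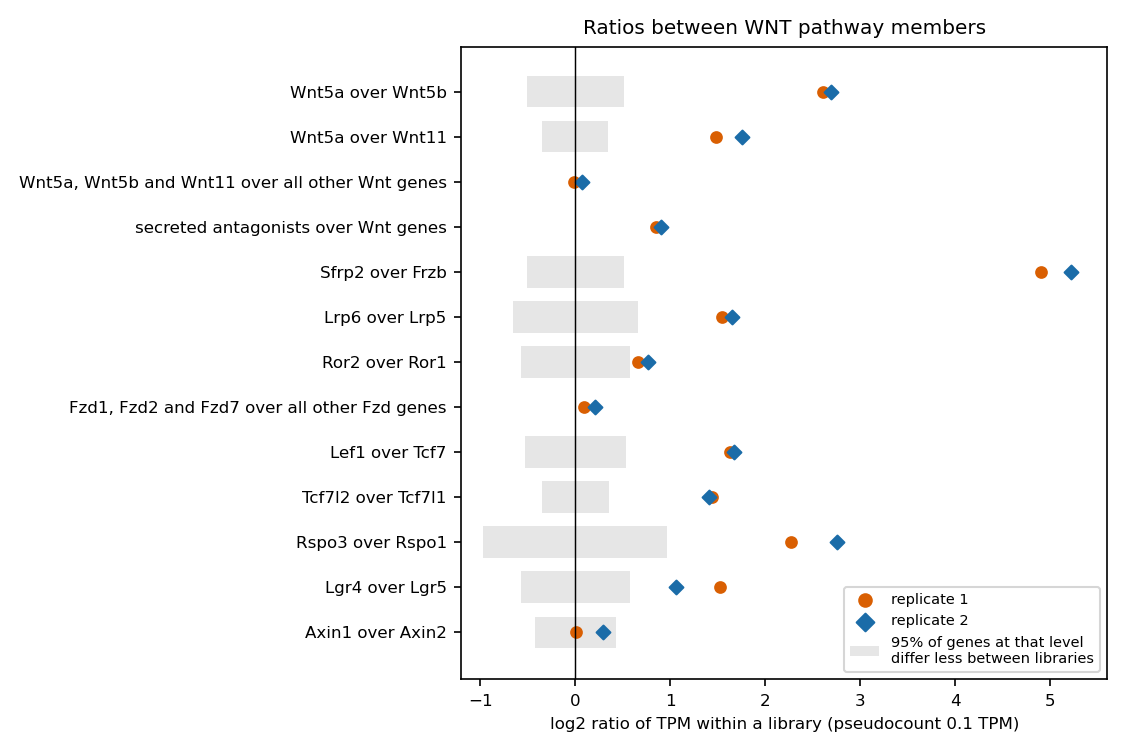
Log2 ratio of TPM between members or sums of members within each library (pseudocount 0.1 TPM), with replicate 1 as circles and replicate 2 as diamonds; for ratios of single genes, a grey bar spans the 95th percentile of the difference between libraries for genes of similar level. Of these 10 ratios, 9 lie outside the bar in both libraries and Axin1 over Axin2 lies inside it; the 3 ratios of sums have no bar.

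Most genes had a leading transcript that was the same in both libraries. At a mean of 1 TPM or above there were 53 genes, of which 20 had 1 transcript in the tables and 33 had several. Among the 33, the transcript with the highest mean share of TPM led in both libraries in 31, and it held 50% or more on average in 27. Transcript shares are the authors' estimates and carry no count of reads across the exon junctions, so their difference between libraries was not tested. Names and types are those of GENCODE M21.

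Wnt5a was made of Wnt5a-202, with 50.02% and 49.66%, and the longer Wnt5a-201, with 38.43% and 39.34%. Ctnnb1-214 held 61.26% and 61.97% of Ctnnb1. Wnt11 was the only gene of the 33 whose leading transcript is not typed protein-coding: Wnt11-202, with 45.93% in replicate 1 and 35.87% in replicate 2, is typed as a target of nonsense-mediated decay. The protein-coding Wnt11-205 came close, with 40.31% in replicate 1 and 35.52% in replicate 2, and by posterior mean it led in replicate 2, with 35.73% to 35.70%. By posterior mean the leading transcript was shared in 29 of the 33 genes, with Wnt11 and Ryk no longer among them. The protein-coding transcripts of Wnt11 summed to 12.25 and 14.32 TPM of its 29.68 and 29.85 TPM. Tcf7l2, with 22 transcripts, was the most divided: Tcf7l2-209 led with 29.77% and 27.37%, and 46.09% and 40.58% lay in transcripts not typed protein-coding, chiefly the retained-intron Tcf7l2-206. Tcf7-201 held 77.76% and 71.91% of Tcf7.

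The leading transcript differed between the libraries for Notum and Wnt2. Notum-202 held 55.05% in replicate 1 and 21.74% in replicate 2, while Notum-203 held 0% in replicate 1 and 65.03% in replicate 2, on 141 and 144 counts for the whole gene. For Wnt2, a transcript with no entry in GENCODE M21 held 52.56% and 40.42%, and Wnt2-201 held 47.44% and 59.58%. Both genes lay below 7 TPM in both libraries.

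**Figure D3:**
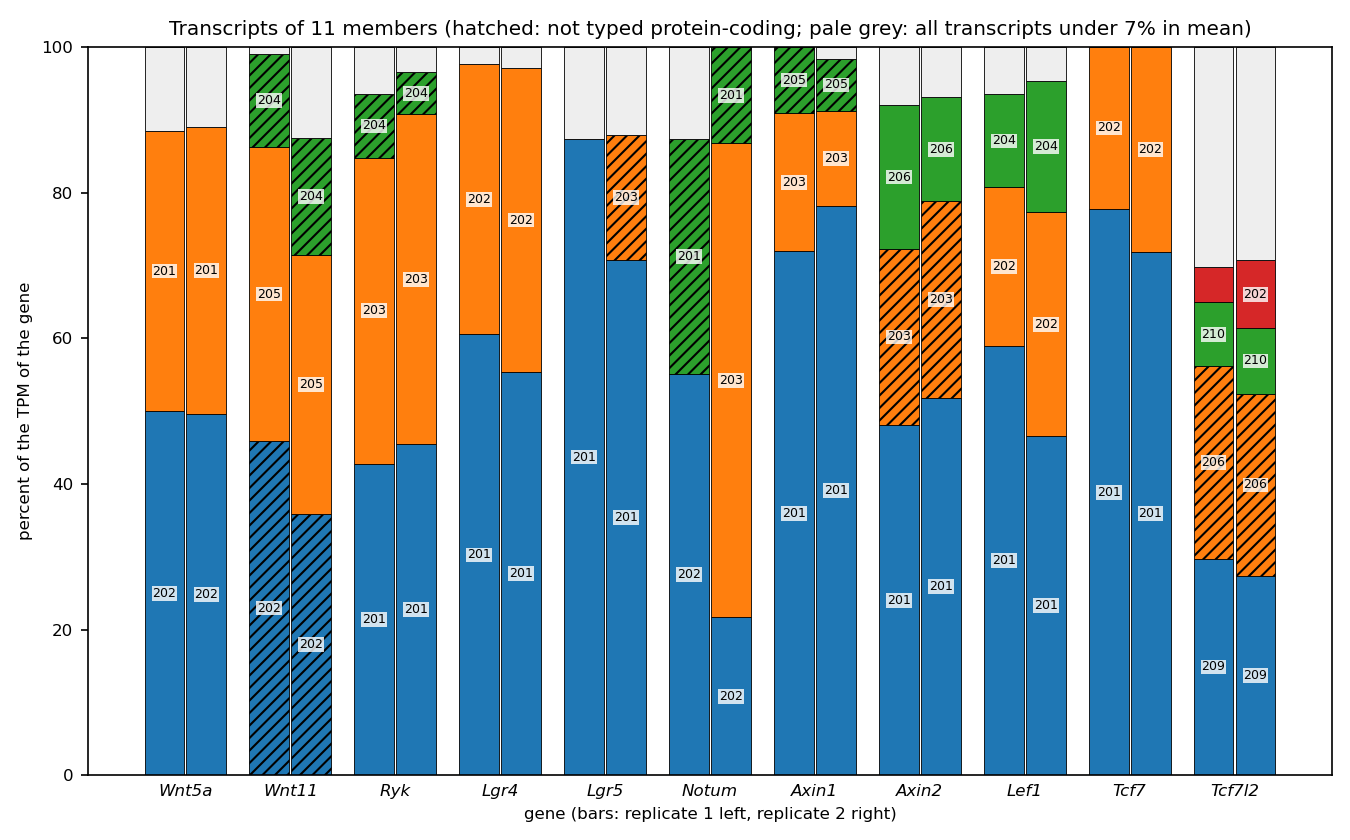
Percent of the TPM of 11 genes held by each transcript, with the left bar of each pair replicate 1 and the right bar replicate 2; numbers are the ends of the GENCODE transcript names, hatching marks transcripts not typed protein-coding and pale grey sums those under 7% on average. Wnt5a-202 held 50.02% and 49.66% of Wnt5a, whereas the leading Notum transcript is 202 in replicate 1 and 203 in replicate 2.

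In GENCODE M21 the main coding transcripts of Lef1, Lgr4 and Axin1 differed by a cassette exon, one that is either kept or skipped whole. These exons are printed because they are a coding difference between the M21 models of these transcripts. The shares were estimated on GENCODE M4 models. Lef1-201, Lef1-202, Lef1-204, Lgr4-201, Axin1-201 and Axin1-203 have another version in M21, so the models behind the shares may differ from those printed. Each is read 5′ to 3′ on the gene's strand from the GENCODE M21 transcripts, with the exon in capitals and 15 bases of the flanking exons in lower case, and beneath it stands the junction without the exon. In these 3 genes the exon length is a multiple of 3, so the reading frame goes on across the skipped form. Wnt10a also had such an exon, exon 3 of 4, but its 380 bases are no multiple of 3 and are not printed, and Wnt10a-201, which carries it, held 81.02% and 95.16%, against 18.98% and 4.84% for Wnt10a-202. Those 2 transcripts differ in length by 1832 bases, so their models also differ elsewhere.
Lef1 with exon 6: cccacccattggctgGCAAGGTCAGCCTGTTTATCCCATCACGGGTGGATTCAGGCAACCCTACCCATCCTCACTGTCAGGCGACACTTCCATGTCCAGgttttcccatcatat
Lef1 without exon 6: cccacccattggctggttttcccatcatat
Lgr4 with exon 2: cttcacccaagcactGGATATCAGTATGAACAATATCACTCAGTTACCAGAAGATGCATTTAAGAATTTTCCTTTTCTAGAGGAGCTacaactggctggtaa
Lgr4 without exon 2: cttcacccaagcactacaactggctggtaa
Axin1 with exon 9: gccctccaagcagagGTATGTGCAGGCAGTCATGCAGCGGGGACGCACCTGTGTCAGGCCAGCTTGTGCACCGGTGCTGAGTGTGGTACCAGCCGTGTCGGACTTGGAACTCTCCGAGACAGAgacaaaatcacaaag
Axin1 without exon 9: gccctccaagcagaggacaaaatcacaaag

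The Lef1 exon lies at chr3:131191023-131191106 on the plus strand of GRCm38, exon 6 of the 12 of Lef1-201, and its 84 bases encode 28 codons. Among Lef1 transcripts with or without it, those with it held 63.0% of the TPM in replicate 1 and 48.9% in replicate 2, or 56.0 ± 9.98% (SD, n = 2). Lef1-201 carries the exon, with 58.92% and 46.61% of all Lef1 TPM, and Lef1-202 lacks it, with 21.80% and 30.68%. Lef1-204, which also lacks it, had 12.76% and 18%. The deposited lengths of Lef1-201 and Lef1-202 differ by exactly these 84 bases. Those of Lef1-201 and Lef1-204 differ by 125 bases, so Lef1-204 also differs elsewhere.

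The Lgr4 exon, at chr2:109970692-109970763 on the plus strand, is exon 2 of 18, with 72 bases and 24 codons. It was included in 62.0% and 57.0% of the TPM of the transcripts that could hold it, or 59.5 ± 3.51%, and the deposited lengths of Lgr4-201 and Lgr4-202 differ by its 72 bases. The Axin1 exon, at chr17:26192516-26192623 on the plus strand, is exon 9 of 11, with 108 bases and 36 codons, and was included in 79.1% and 85.7%, or 82.4 ± 4.66%. The deposited lengths of Axin1-201 and Axin1-203 differ by 887 bases, so these models differ elsewhere. Their lengths do not show whether the deposited models differ by this exon. Both forms of each gene had estimates above 0 in each library.

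The libraries were also compared with each other, gene by gene. A two-sided exact binomial test on TMM library sizes was run for each gene with 10 or more counts in the sum. Its p-values were adjusted by Benjamini-Hochberg over all 19154 features tested, and a call needed an adjusted p under 0.05. Only counting error enters it, there is 1 library on each side with no replicate check, and what it compares are these libraries, not conditions. Of the 60 genes, 56 had enough counts. Of these, 6 were higher in replicate 1, against 14.3% of all genes tested, and 17 were lower in replicate 1, against 13.2%. With spike-in counts as the scaling the split was 4 higher and 23 lower. That scaling moved the median log2 ratio of all genes to -0.06, and the shares of all genes called under it are not given here. With TMM, the median log2 ratio of replicate 1 over replicate 2 was -0.05 over the 56 genes and -0.00 over all genes tested.

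A test that also counts the typical spread between these libraries gave no calls. With the common dispersion, a biological coefficient of variation of 0.0992, edgeR's exact test called 0 of the 56, against 0.491% of genes called higher and 0.177% called lower in replicate 1. This dispersion was estimated from these same libraries without separating them. Differences between them widen it, so few calls by edgeR's exact test are partly built in. At an unadjusted p under 0.05 that test had 5 of the 56, Sfrp4, Ryk, Wnt9b, Wnt4 and Wnt2, against 6.62% of all genes it tested.

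The receptor Ryk had the smallest adjusted p among the 56. It had 1637 counts in replicate 1 and 2439 counts in replicate 2, with a log2 ratio of -0.60 ± 0.05 (counting SE), an adjusted p of 2.58e-37 by the exact binomial test and of 0.201 by edgeR's exact test. Estimates for both main coding transcripts differed the same way, Ryk-201 with 779 counts in replicate 1 against 1206 in replicate 2. Ryk-203 had 668 counts in replicate 1 against 1049 in replicate 2. Reads common to both transcripts are divided between them by estimate, so these are not separate observations. Ryk-204, typed as a target of nonsense-mediated decay, had 172 counts in replicate 1 and 166 in replicate 2.

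Among the 16 ligands tested, 3 were higher and 4 lower in replicate 1, against 14.3% and 13.2% of all genes tested. The same shares apply to the calls in the other roles below. Wnt4 was lower, with 1159 counts in replicate 1 and 1550 counts in replicate 2, and a log2 ratio of -0.44 (exact binomial test, adjusted p = 7.33e-14). Wnt5a was lower by a smaller step, with a log2 ratio of -0.22 (exact binomial test, adjusted p = 9.58e-23), and Wnt7a and Wnt7b had -0.38 and -0.12. Wnt9b, Wnt2 and Wnt11 were higher, with log2 ratios of 0.83, 0.50 and 0.16. Wnt9b rested on 62 counts in replicate 1 and 34 in replicate 2, below 1 TPM in both. For Wnt2, the transcript with no entry in GENCODE M21 had 119 counts in replicate 1 and 62 in replicate 2. Wnt2-201 differed less, with 141 counts in replicate 1 and 119 in replicate 2. The call for Wnt11 was lost with total counts or spike-in counts as the scaling, and its TPM of 29.68 and 29.85 showed no such difference.

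Of the receptors, Fzd9 and Fzd10 were higher in replicate 1, with log2 ratios of 0.33 and 0.22, the call for Fzd10 being lost under those same scalings. Fzd3 and Fzd1 were lower, with -0.28 and -0.27, as were Ror2 with -0.18 and Lrp6 with -0.09. Lgr4 was lower with -0.11, a call lost with DESeq2 size factors. Lgr5 was lower, with 749 counts in replicate 1 and 915 counts in replicate 2, and a log2 ratio of -0.31 (exact binomial test, adjusted p = 0.000107). Its TPM differed more than its counts, and the 607 nt transcript Lgr5-203 had 0 TPM in replicate 1 and 2.00 TPM in replicate 2, where it had 21.84 counts. The coding Lgr5-201 had 6.45 TPM in replicate 1 and 8.29 TPM in replicate 2. No R-spondin was called.

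Among antagonists, Sfrp4 was higher in replicate 1, with 205 counts in replicate 1, 109 counts in replicate 2 and a log2 ratio of 0.88 ± 0.17 (exact binomial test, adjusted p = 2.14e-06; edgeR's exact test, adjusted p = 0.0901). Sfrp1, Dkk2 and Sfrp2 were lower, with log2 ratios of -0.26, -0.21 and -0.20. Axin1, Tcf7l2 and Tcf7l1 were lower too, with -0.25, -0.17 and -0.14, while Ctnnb1, Lef1, Tcf7 and Axin2 were not called, with log2 ratios from -0.09 to 0.02.

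**Figure D4:**
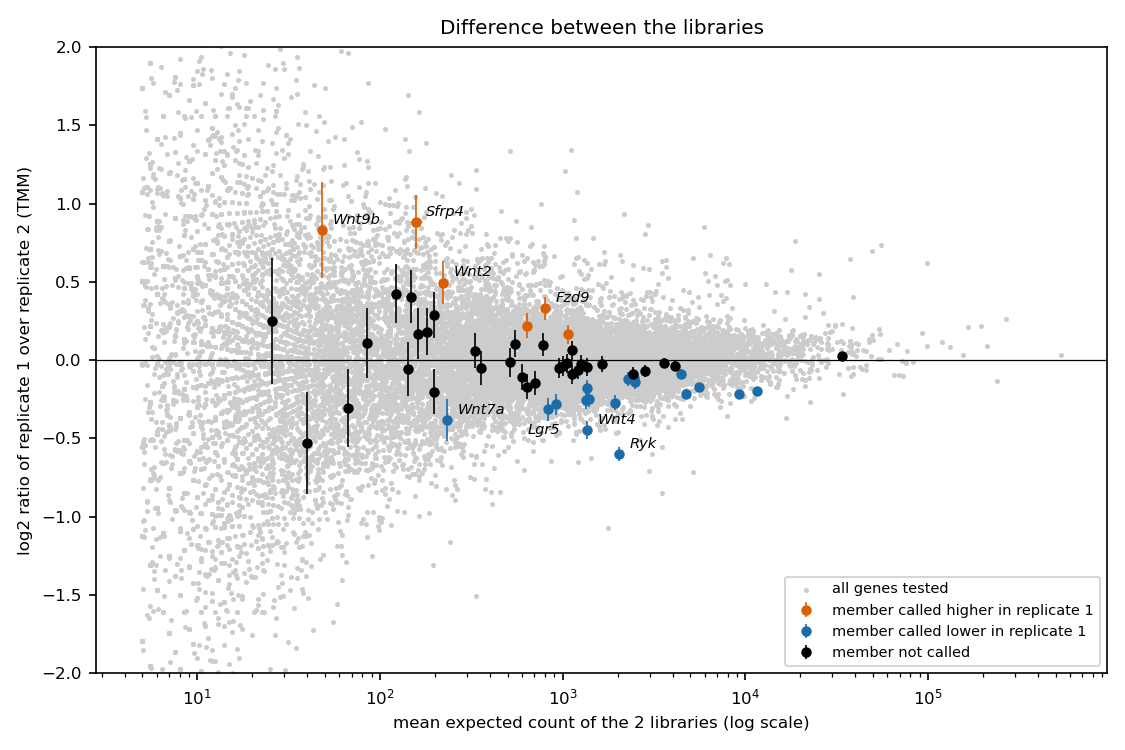
Log2 ratio of replicate 1 over replicate 2 against the mean expected count (log axis) for all genes tested (grey) and for the 56 members tested, coloured by the call of the exact binomial test, with bars of 1 counting standard error; grey points beyond 2 on the log2 scale are not shown. Among the members called, Sfrp4 at 0.88 lies farthest above 0 and Ryk at -0.60 farthest below.

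Markers of several cell types in the limb differed between the libraries at the same time. The exact binomial test called 14.3% of all genes tested higher and 13.2% lower in replicate 1. By this test, 9 of 9 limb mesenchyme markers were lower in replicate 1, with a summed level of 436.8 TPM in replicate 1 and 553.2 TPM in replicate 2. Epidermal markers were higher in replicate 1 for 8 of 9, summing to 1572 TPM in replicate 1 against 1370 TPM in replicate 2. Muscle markers were higher for 6 of 6, at 2643 TPM in replicate 1 against 1839 TPM in replicate 2, and red blood cell markers for 6 of 6, at 25920 TPM in replicate 1 against 17224 TPM in replicate 2. Of 4 markers of bone-forming cells, 3 were higher, of 6 cartilage markers 4 were higher and 1 was lower, and of 3 joint markers 2 were lower. Of 4 tendon markers 1 was higher and 2 were lower, of 4 Schwann and neuronal markers 2 were higher, and of 4 leukocyte markers 1 was higher. No endothelial marker was called by this test. Lists of 3 or 4 markers are too short to set against the shares of all genes. edgeR's exact test called 1 muscle marker and 2 red blood cell markers and none of the others. Of all genes it tested, 0.491% were called higher and 0.177% lower in replicate 1. The part of these markers in the differences of Ryk, Sfrp4 and the other genes above was not tested.

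Other genes of the pathway were taken from 10 lists with 57 genes. Of these, 55 reached 1 TPM in both libraries, against 61.4% of all protein-coding genes, a share that also applies to the detection counts of single lists below. The exact binomial test called 5 higher and 18 lower in replicate 1, against the 14.3% and 13.2% of all genes tested. In the same 57 genes edgeR's exact test called 0, with 1 at an unadjusted p under 0.05, against 6.62% of all genes. For secretion of the ligands, the carrier Wls had 110.6 and 122.7 TPM and the acyltransferase Porcn 8.95 and 9.85 TPM. The ligases that remove Frizzled receptors, Znrf3 and Rnf43, had 9.93 and 11.04 TPM and 4.94 and 7.37 TPM. The Dickkopf receptors Kremen2 and Kremen1 had 32.75 and 32.80 TPM and 15.99 and 18.22 TPM. Among other surface proteins the glypican Gpc3 stood highest, with 758.1 and 855.1 TPM, and among other secreted inhibitors Igfbp4, an IGF-binding protein that also binds Lrp6, with 822 and 923.1 TPM.

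All 3 Dishevelled genes, which relay the signal from Frizzled receptors, were detected. Dvl2 was the highest of them, with 30.82 and 35.96 TPM. All 9 genes of the destruction of beta-catenin were detected, led by the kinase Csnk1a1 with 204.2 and 222.3 TPM, and so were all 10 nuclear cofactors, led by the inhibitor Ctnnbip1 with 54.99 and 55.75 TPM. Of 11 planar cell polarity genes, 10 were detected, Prickle1 leading with 41.56 and 49.30 TPM. The 2 genes of the 57 that stayed below 1 TPM in both libraries were Celsr3, with 0.10 and 0.05 TPM, and the inhibitor Draxin, with 0.35 and 0.38 TPM.

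Of 8 widely used target genes of the pathway, all were detected. Ccnd1, the cell cycle gene, had 91.72 and 106 TPM, a called difference with a log2 ratio of -0.07. Myc had 67.09 and 53.90 TPM and was higher in replicate 1, with a log2 ratio of 0.39, as was the transcription factor Sp5 with 6.30 and 4.49 TPM and 0.56. Tnfrsf19 had 41.65 and 42 TPM, and the feedback inhibitor Nkd1, with 22 and 26.76 TPM, was lower with -0.21. Dact1, with 11.35 and 13.37 TPM, was lower with -0.18. Of the 8 targets, 2 were thus called higher and 3 lower in replicate 1 by the exact binomial test, against 14.3% and 13.2% of all genes tested. Axin2 itself had a log2 ratio of -0.02.

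Some levels carry a limit from the counting. Library strand is among the details not given in the sources used here, and 12 of the 60 genes share exon bases with a gene on the opposite strand, whose reads then cannot be told apart. Of the partners, 2 had no value to compare, Gm48159 opposite Rspo3 and Gm43352 opposite Lef1. Estimates for the partners of the most abundant genes, made from the same reads, were as follows: Ulk4, sharing 759 bases with Ctnnb1, had 1.90 and 2.38 TPM, Gm2670, sharing 358 bases with Wnt5a, 3.47 and 4.06 TPM, and Gm26771, sharing 347 bases with Sfrp2, 4.80 and 6.96 TPM.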

How the data were processed

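Total RNA of E14.5 mouse limb was measured in 2 libraries of 1 group, mapped to mm10 with the GENCODE M4 annotation, per the notes deposited beside the tables. Details not given in the sources used here include aligner, quantifier and strand. The deposited expected counts are fractional read estimates for genes and transcripts, per the file headers. The TPM values deposited by the authors, and posterior mean TPM, are scaled to a fixed total that includes spike-ins, and the percent of a gene's TPM per transcript was deposited by the authors too. Symbols, types and exons came from GENCODE M21 on GRCm38 (the assembly of mm10), where 42462 of 43346 identifiers had an entry.

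Rounded expected counts, without spike-ins, entered the tests. No quasi-likelihood fit is possible with 1 library on each side, so a two-sided exact binomial test on TMM library sizes was used (edgeR 4.0.16, scipy 1.17.1), for genes with 10 or more counts and a Benjamini-Hochberg adjusted p under 0.05. Also used were R 4.3.3, DESeq2 1.42.0 size factors, Python 3.11.15, numpy 2.4.6, pandas 2.3.3 and matplotlib 3.10.9. The spread beside a ratio shows how far genes of like level differ between libraries and misses errors that act on 1 gene of the pair, such as mapping. Log2 ratios of TPM used a pseudocount of 0.1 TPM, which understates ratios of low genes. No molecular identifiers are recorded, so tests and floors of 3 counts cover counting error only, and close paralogues may share reads.

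The genes, lists, ratios and markers were chosen with earlier results of these data known. Every gene of the rule could be named. Of the other pathway lists, the 3 genes of highest mean TPM, those called and those at 0 in both libraries could be named; Celsr3 and Draxin were named after their values were seen, as the 2 below 1 TPM. Lgr4, Lgr5 and Ctnnb1 transcripts were described beside those of the listed genes and those with no clear or no shared leading transcript, Lgr4 and Lgr5 after their values were seen. Sex-linked genes were read as a check of the labels. Alternatives were other TPM minimums, pseudocounts, scalings and count filters, posterior means, protein-coding transcripts, each library alone and edgeR's exact test.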

Additional observations from a re-analysis of the deposited data

How the results depend on the processing

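No paired analysis was possible because all samples belong to 1 group. The count of genes detected, 52 of 60, lay between 50 and 55 under other TPM minimums, posterior means, protein-coding transcripts and each library alone. The 9 ratios of single genes past the spread kept their direction and their side of it under each alternative. The antagonists over the ligands turned to -0.31 on the log2 scale without Sfrp2, an alternative chosen after seeing the data. The sum of Wnt5a, Wnt5b and Wnt11 over the other ligands was -0.21 on the log2 scale in protein-coding transcripts and ran from -0.015 to 0.0677 with each library alone, so its sign is not determined. Axin1 over Axin2 was 0.46 in protein-coding transcripts, past its spread. By construction that setting leaves out the transcripts of Wnt11 and Axin2 that are not typed protein-coding. The count of genes that differed between the libraries, 23, was 0 with edgeR's exact test, as were the 6 higher and the 17 lower in replicate 1. Calls higher and lower in replicate 1 numbered 7 and 16 on DESeq2 size factors, 4 and 19 on total counts and 4 and 23 on spike-in scaling. The shares of all genes called under these scalings are not given here. No called gene changed direction. Spike-in scaling moved the median of all genes to -0.06. Genes at a few counts, such as Wnt1 and Sost, could not be ranked at this depth, and 2 libraries leave the SD itself imprecise.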
